A study of Mus musculus with 24 samples.

Results

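Epithelial cells of the colon were compared with epithelial cells of the ileum from the same 5 wild-type (WT) mice, over every gene of the deposited table. The comparison used 10 of the 24 libraries of the series, chosen by their labels as WT colon or WT ileum and paired by mouse number. All mice were C57BL/6 and 8 to 14 weeks old. WT mice 59 and 61 were irradiated and carry the label 8 weeks after chimerism. WT mice 72, 73 and 75 were not irradiated. The other 7 mice are labelled KO, with 4 taken 2 weeks after chimerism (early) and 3 taken 8 weeks after it (late). The labels do not name the KO allele, and the series title names gut macrophages that lack IL-10Rα. In every mouse the cells were sorted as Villin-tomato positive and CD45 negative. The reporter is driven by Villin, a gene of intestinal epithelium, and CD45 (Ptprc) marks leukocytes, so each library holds a mixture of absorptive, secretory and crypt cells. The labels give no purpose for the comparison of the tissues.

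The ileum is the last stretch of the small intestine, where villi take up the remaining sugars, peptides and fats, and where bile acids and vitamin B12 are recovered. Paneth cells at the base of its crypts release antimicrobial peptides. The colon has no villi and normally no Paneth cells, recovers salt and water, burns short-chain fatty acids made by bacteria, and is covered by a thick mucus layer. The position along the gut is held by transcription factors, with Gata4 typical of the proximal small intestine and the posterior Hox genes of the hindgut.

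Values are normalised reads, the reads of a gene divided by a size factor of its library. Depth in the WT libraries ran from 10.64 M to 18.69 M gene reads, with 13.64 M as the median, and 1 read was worth 0.7435 to 1.555 normalised reads. Values are listed in the order of mice 59, 61, 72, 73 and 75, and positive log2 differences mean higher in colon. Ribosomal precursor RNA (Rn45s) took 0.1048 to 25.39% of the reads, with 16.13 and 19.96% in the colon libraries of mice 72 and 73 and 25.39% in the ileum library of mouse 73. Mice 61 and 75, of which 1 was irradiated and 1 was not, stood apart from the other 3 in colon, and less cleanly in ileum. Their colon libraries correlated with each other at 0.984 (log2 values over genes) and with the other colon libraries at 0.920 to 0.953, while the other 3 correlated at 0.979 to 0.982. In ileum these values were 0.984, 0.945 to 0.969 and 0.966 to 0.9825, so the last 2 ranges overlapped. Reads on olfactory and vomeronasal receptor genes, genes best known from sensory neurons, were 549 to 636 per M in the colon of mice 61 and 75 and 202 to 208 in the other colon libraries. In ileum they were 370 to 391 in these 2 mice and 156 to 311 in the other 3. Between the tissues, receptor reads were 0.239 higher in colon on the log2 scale and higher in 4 of 5 mice (exact sign-flip permutation test, two-sided, p = 0.4375, smallest possible 0.0625).

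Both tissues carried the markers of epithelium. The 11 markers of epithelial identity took 10925 to 12933 reads per M in colon and 14399 to 18718 in ileum. Epcam, the adhesion molecule used to recognise epithelium, measured 19475 ± 4308 normalised reads in colon and 23788 ± 3695 in ileum (SD, n = 5), and its values overlapped between the tissues. Vil1, the gene whose promoter drives the reporter, measured 20506, 16267, 17689, 31636 and 13225 in colon and 67557, 49647, 46336, 54022 and 40547 in ileum, with every ileum library above every colon library (log2 difference -1.42 ± 0.31 SE, adjusted p = 0.00204, limma). The call for Vil1 was lost with the 3 non-irradiated mice alone (-1.26, adjusted p = 0.147) and with mice 59, 72 and 73 alone (-1.29, adjusted p = 0.1). Cdh17, an intestinal cadherin, was also higher in ileum at -0.95 (adjusted p = 0.0162), a call that was lost without mouse 59, 61 or 75. Reads of 15 leukocyte markers were 36.8 to 79.7 per M in colon and 42.2 to 73.1 in ileum. Of the 12 leukocyte markers tested, 2 (16.7%) were called, both higher in ileum: the granule protease Gzma, a call lost without mouse 59, 61, 72 or 75, and the antibody joining chain Jchain, a call lost without the block (adjusted p = 0.0594). The median of the 12 was -0.09, and 0.29 in mice 61 and 75. Ptprc, which the sort selects against, was not called, at 236 normalised reads in colon and 272 in ileum.

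The tissues differed at 6176 of 17646 genes tested (35.0%), with 2781 higher in colon (15.8%) and 3395 higher in ileum (19.2%). The side with more calls turned under other scalings, to 3370 in colon and 3047 in ileum in reads per M without Rn45s, and 3084 and 3035 by DESeq2. The calls used throughout rest on limma with the mouse as a block and a Benjamini-Hochberg adjusted p under 0.05. A difference of at least 4-fold was called for 446 genes in colon (2.53%) and 451 in ileum (2.56%), together 897. At least 32-fold was reached by 45 genes in colon and 89 in ileum. The 451 ileum genes took 11.4 to 16.1% of the ileum reads and 0.925 to 1.18% of the colon reads, and the 446 colon genes took 8.07 to 8.77% of the colon reads and 0.864 to 1.07% of the ileum reads. Colon and ileum libraries did not overlap for 884 of the 897 genes and for 3555 of all 17646. The median log2 difference over all genes tested was -0.02. Without the block 4360 genes were called, and with the 3 non-irradiated mice alone 3789, while the count of 4-fold genes was 895 and 917. With mice 59, 72 and 73 alone 4969 genes were called (1001 at 4-fold), and with mice 61 and 75 alone 9013 (807 at 4-fold).

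**Figure D1:**
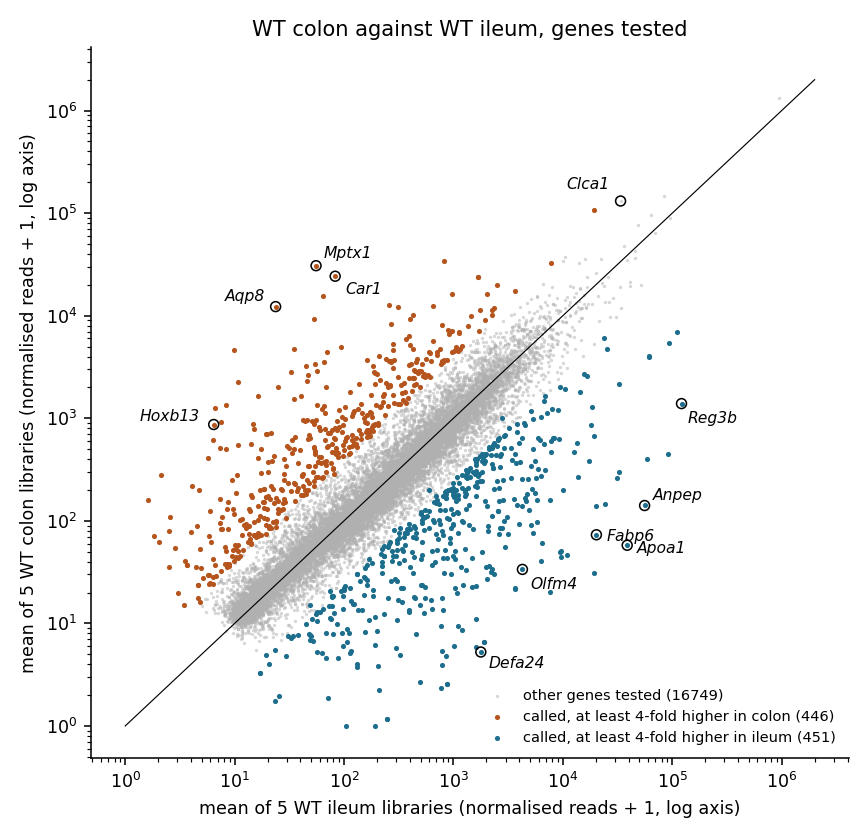
Mean of 5 WT colon libraries against mean of 5 WT ileum libraries in normalised reads plus 1, both axes log, with 1 point for each of 17646 genes tested. Orange points are the 446 genes called at least 4-fold higher in colon, blue points the 451 called at least 4-fold higher in ileum, grey points the other genes, the line marks equal levels, and ringed genes are named in the text; Mptx1 and Aqp8 lie far above the line and Apoa1, Anpep and Defa24 far below it.

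The genes furthest apart included defensins, apolipoproteins, a mucosal pentraxin and a water channel. By the rule for naming genes, the 12 highest in colon were Mptx1, the water channel Aqp8, the cytochrome P450 genes Cyp2d34 and Cyp2d12, the carbonic anhydrases Car1 and Car2, the goblet cell protein Retnlb, the transglutaminase Tgm3, the surface protein gene Ly6g, the proton pump Atp12a, and the transcription factors Hoxb13 and Foxd2. Foxd2 aside, their log2 differences ran from 9.66 for Mptx1 to 7.05 for Car2. The 12 highest in ileum were the Paneth cell genes Defa24, Defa20, Defa2, Defa21, Defa6, Defa22 and Lyz1, the apolipoproteins Apoa1 and Apoa4, the peptidase Anpep, the sphingomyelinase Enpp7 and the bile acid binding protein Fabp6. Those differences ran from -9.48 for Defa24 to -8.11 for Defa22, and with a pseudocount of 5 these were -7.81 and -6.63, since the defensins are near 0 in colon. Defa2 and Defa20 hold identical values in every library and count as 1 measurement. Foxd2 was read in every colon library, at 151, 130.1, 223, 189.7 and 107, and in ileum gave 0, 0, 0, 3 and 0, so its difference is set by the pseudocount and no fold is stated for it. Beside these, 30 gene lists were described, by the members called in each direction and by their median. Further members of the lists are named as examples, and those outside the naming rule were chosen after their values were seen.

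**Figure D2:**
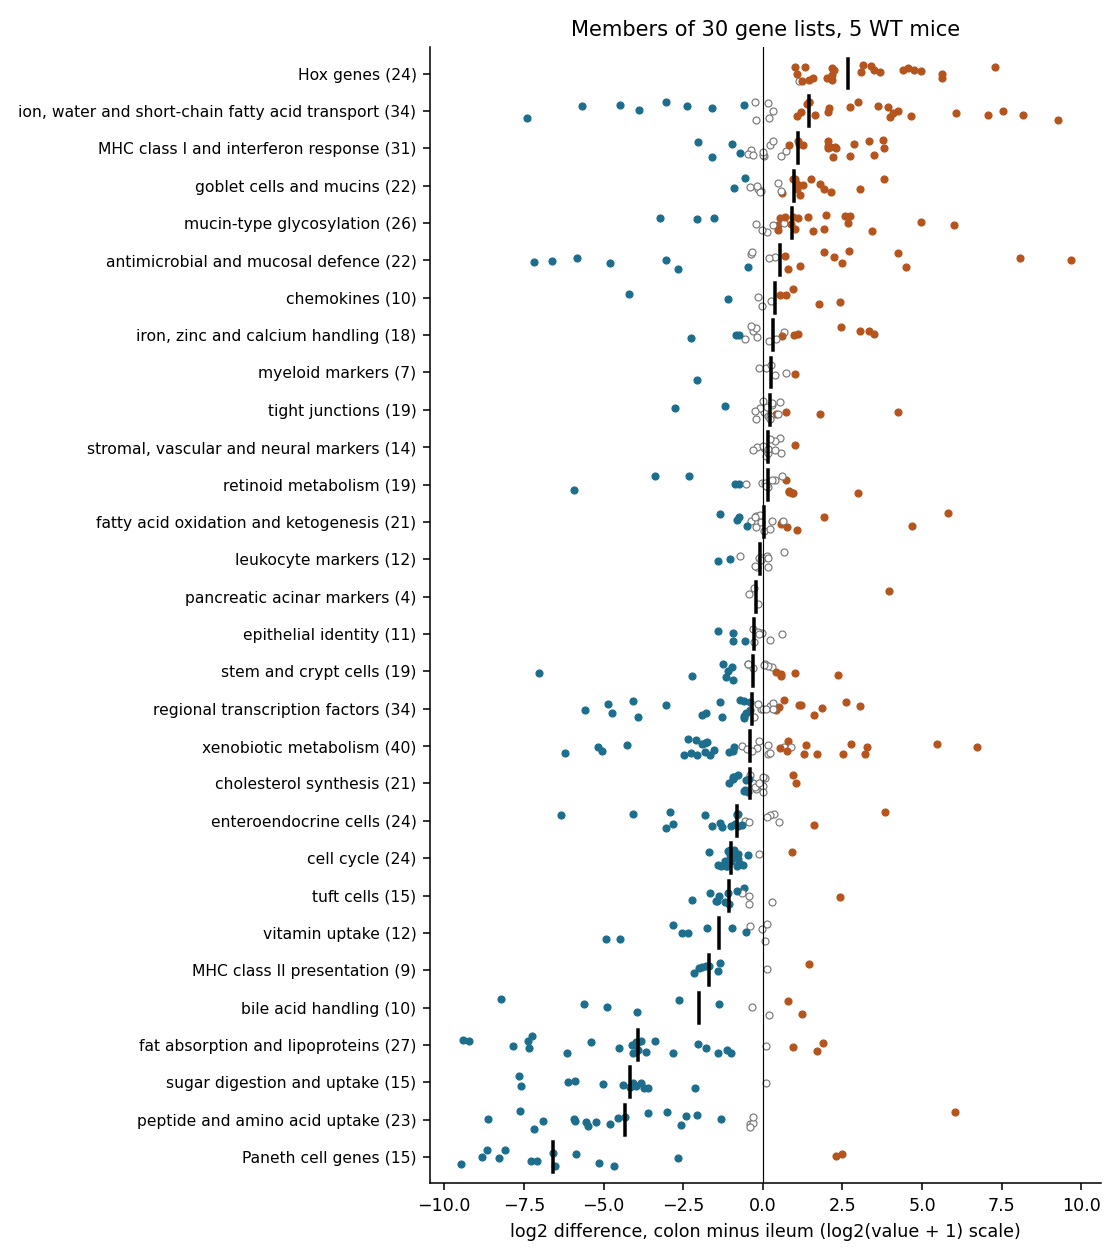
Log2 difference between WT colon and WT ileum for every tested member of 30 gene lists, with the number tested in brackets and lists ordered by their median (black bar). Filled points are called, orange higher in colon and blue higher in ileum, and open points are not called; Paneth cell genes lie lowest with a median of -6.58 and Hox genes highest with a median of 2.66.

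Enzymes and transporters of carbohydrate uptake were higher in ileum. Of 15 genes of sugar digestion and uptake, 14 were called higher in ileum (93.3%, against 19.2% of all genes) and none higher in colon, with a median of -4.17. Sis, sucrase-isomaltase of the brush border, measured 363, 558, 311, 259.6 and 747 in colon and 106935, 113595, 56880.1, 43995 and 139449 in ileum. Every ileum library lay far above every colon library (log2 difference -7.66 ± 0.19 SE, adjusted p = 6.8e-13). Lct, lactase, measured 28.8, 44.6, 71.4, 28 and 74.7 in colon and 8821, 4254, 12942, 8985 and 13203 in ileum, again without overlap (log2 difference -7.59 ± 0.21 SE, adjusted p = 2.08e-12, and -6.995 in mice 61 and 75). Treh, the trehalase, measured 22 in colon and 1597 in ileum, 72.7-fold apart. Maltase-glucoamylase (Mgam), the sodium-glucose transporter Slc5a1, the basolateral glucose transporter Slc2a2 and the fructose transporter Slc2a5 were 17.3-, 15.1-, 60.3- and 16.5-fold higher in ileum. Khk, the first enzyme of fructose breakdown, differed by -4.17. Glb1, the lysosomal beta-galactosidase, was not called, at 761 in colon and 700 in ileum.

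The sequence before the start sites of such ileum genes was read from RefSeq for GRCm38.p6, a later build than the mm9 of the deposited values. The table covers 27025 genes and 13298 of the 17646 tested, and holds 250 bases before and 50 after each start. Words typical of 3 factors of intestinal epithelium were searched on both strands: CAAAGTCCA for HNF4, AGATAA for GATA factors and TTTATG for CDX factors. Counts are of genes, and a gene counts when any of its start sites holds the word. CAAAGTCCA stood in 0.555% of all 27025 genes, 0.624% of those tested, 1.56% of 321 4-fold colon genes and 3.58% of 335 4-fold ileum genes. The 12 ileum genes were Alpi, Btnl2, Cd302, Cyp3a11, Gimd1, H2-T3, Nat8, Pdzk1, Pipox, Ptpn22, Slc3a1 and Treh, and the 5 colon genes Clec14a, Fhl1, Hsd3b3, Neu3 and Trpv6. AGATAA stood in 12.7% of all genes, 9.17% of those tested, 12.1% of the colon set and 15.2% of the ileum set. TTTATG stood in 13.6, 9.5, 15.3 and 14.6% of the same sets. A match is a description of letters, not a binding site, and its part in the levels was not tested. The promoters of 4 ileum genes are shown because they hold these words, in lower case with the words in capitals on whichever strand they match, 5′ to 3′ along the gene. Lct has AGATAA at -90 and, on the other strand, at -101, and TTTATG on the other strand at -31, counted from the start site. Sis has TTTATG at -43, Treh CAAAGTCCA on the other strand at -71, and Cyp3a11 CAAAGTCCA at -109.
Lct (chr1:128328269-128328568, minus strand): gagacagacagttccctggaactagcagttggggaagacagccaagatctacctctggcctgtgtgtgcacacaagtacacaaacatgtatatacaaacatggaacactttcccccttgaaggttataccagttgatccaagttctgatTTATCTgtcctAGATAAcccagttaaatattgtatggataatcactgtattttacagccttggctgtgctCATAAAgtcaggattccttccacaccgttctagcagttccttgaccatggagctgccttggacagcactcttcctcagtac
Sis (chr3:72967814-72968113, minus strand): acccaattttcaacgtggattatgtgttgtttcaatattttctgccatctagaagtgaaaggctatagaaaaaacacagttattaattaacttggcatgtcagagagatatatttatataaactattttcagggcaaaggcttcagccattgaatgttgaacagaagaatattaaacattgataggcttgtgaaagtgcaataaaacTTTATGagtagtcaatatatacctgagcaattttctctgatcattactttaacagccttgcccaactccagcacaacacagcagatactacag
Treh (chr9:44672983-44673282, plus strand): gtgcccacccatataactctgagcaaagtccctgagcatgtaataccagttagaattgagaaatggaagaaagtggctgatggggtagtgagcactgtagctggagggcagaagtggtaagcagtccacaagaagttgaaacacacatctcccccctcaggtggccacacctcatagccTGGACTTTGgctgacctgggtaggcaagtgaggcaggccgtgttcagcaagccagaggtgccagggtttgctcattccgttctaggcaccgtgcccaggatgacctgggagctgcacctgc
Cyp3a11 (chr5:145879805-145880104, minus strand): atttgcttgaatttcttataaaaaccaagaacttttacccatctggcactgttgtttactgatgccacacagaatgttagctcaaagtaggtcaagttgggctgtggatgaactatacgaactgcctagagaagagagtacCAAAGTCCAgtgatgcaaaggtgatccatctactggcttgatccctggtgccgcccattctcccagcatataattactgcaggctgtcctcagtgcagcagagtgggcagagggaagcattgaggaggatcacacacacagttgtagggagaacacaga

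Genes of peptide and amino acid uptake were likewise higher in ileum, with 1 large exception. Of 23 tested, 18 were called higher in ileum (78.3%) and 1 higher in colon, with a median of -4.33. Anpep, the aminopeptidase N of the brush border, measured 89.7, 148, 198, 137 and 130.2 in colon and 77782, 35356, 55843, 51502 and 58694 in ileum (log2 difference -8.63 ± 0.22 SE, adjusted p = 1.1e-12). Slc6a19, the neutral amino acid transporter, measured 23.9, 56.5, 45.9, 56 and 62.7 in colon and 12725, 8424, 9001, 7539.6 and 9738 in ileum (log2 difference -7.62 ± 0.23 SE, adjusted p = 4.01e-12), and the cystine transporter subunit Slc7a9 was 38.1-fold higher. The exception was Slc6a14, a broad neutral and basic amino acid transporter, at 11139.9, 13337, 14179, 11664 and 13063 in colon and 463, 433, 224, 104 and 52.6 in ileum (log2 difference 6.05 ± 0.35 SE, adjusted p = 4.6e-09). The libraries did not overlap, and the difference was 4.76 in the 2 irradiated mice and 6.90 in the 3 others. The oligopeptide transporter Slc15a1 measured 5749 in colon and 14673 in ileum (log2 difference -1.30). Mep1a, a meprin subunit, was not called (-0.40, adjusted p = 0.144), and was called without mouse 73 (-0.52), while its partner Mep1b was higher in ileum at -2.40.

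Fat absorption genes were mostly higher in ileum. Of 27 tested, 23 were called higher in ileum (85.2%) and 3 higher in colon, with a median of -3.93. Apoa1, the main protein of high-density lipoprotein, measured 34.6, 56.5, 90.5, 65.3 and 37 in colon and 57266, 23287, 42296, 42346 and 28405 in ileum, a 682-fold difference (log2 difference -9.41 ± 0.23 SE, adjusted p = 6.65e-13). Apoa4 was 640-fold higher in ileum. Mttp, which loads fat onto apolipoprotein B, and Npc1l1, the cholesterol importer, were 167- and 241-fold higher in ileum, and Apob itself 15.8-fold. The fatty acid binding proteins differed in degree. Fabp1 measured 21.3 ± 4.68 in colon and 3616 ± 1534 in ileum (SD, n = 5), a log2 difference of -7.25. Fabp2 measured 3952 ± 781 in colon and 61198 ± 15947 in ileum, a log2 difference of -3.93. The 3 called higher in colon were Plin2, a lipid droplet coat protein (1.90, adjusted p = 9.48e-08), Scarb1, a lipoprotein receptor (1.70, adjusted p = 6.38e-06), and Apobec1, which edits the Apob transcript (0.95, adjusted p = 0.000377). Clps, pancreatic colipase, was not called.

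Bile acid handling was mostly higher in ileum, to unequal degrees. Of 10 genes tested, 6 were called higher in ileum (60%, against 19.2% of all genes). Higher in colon were 2 (20%, against 15.8% of all genes), and the median was -2. Fabp6, the bile acid binding protein of ileal enterocytes, measured 37, 90, 77.7, 115 and 41 in colon and 20548, 24560, 22868, 18985 and 14309.6 in ileum (log2 difference -8.22 ± 0.20 SE, adjusted p = 6.21e-13). The apical bile acid importer Slc10a2 differed far less, at 1077, 1013, 789, 1225 and 1529 in colon and 4042, 2731, 2732, 1869 and 3255 in ileum (log2 difference -1.37 ± 0.18 SE, adjusted p = 3.44e-05), with every ileum value above every colon value. The basolateral exporter subunits Slc51a and Slc51b differed by -3.96 and -2.64. Fgf15, the hormone that reports bile acids to the liver, measured 1.6, 5.9, 1.3, 6.2 and 8.8 in colon and 131, 198, 312, 705 and 146 in ileum (log2 difference -5.63 ± 0.38 SE, adjusted p = 2.38e-08), with -6.46 in mice 59, 72 and 73 and -4.38 in mice 61 and 75. Its activator, the bile acid receptor Nr1h4, was not called (-0.33, adjusted p = 0.16), and was called without mouse 73 (-0.47). Higher in colon were the exporter Abcc3 (1.22, adjusted p = 3.21e-05) and the prostaglandin transporter Slco2a1 (0.80, adjusted p = 0.00205).

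Vitamin uptake genes were called higher in ileum for 8 of 12 (66.7%) and higher in colon for none. Cubn and Amn, which together form the receptor for vitamin B12 bound to intrinsic factor, were the furthest apart. Cubn measured 421, 654, 331, 508 and 969.9 in colon and 8269, 6262, 14802, 13318 and 24921 in ileum (log2 difference -4.48 ± 0.24 SE, adjusted p = 1.8e-09, and -3.77 in the 2 irradiated mice), and Amn differed by -4.92 (adjusted p = 9.89e-11). The riboflavin transporter Slc52a3 and the vitamin B12 carrier Tcn2 differed by -2.82 and -2.54. The folate transporter Slc46a1 and the thiamine transporter Slc19a2 were not called, at 0.08 and 0.13.

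The colon was higher for most genes of salt, water and short-chain fatty acid transport. Of 34 tested, 21 were called higher in colon (61.8%, against 15.8% of all genes). Higher in ileum were 8 (23.5%, against 19.2% of all genes), and the median was 1.45. Aqp8, a water channel of surface colonocytes, measured 11353, 9391, 17711, 15384 and 7469 in colon and 10.3, 10.1, 19.2, 58.2 and 15.7 in ileum (log2 difference 9.26 ± 0.23 SE, adjusted p = 8.89e-13). Car1, a cytosolic carbonic anhydrase, measured 16105, 25555, 22199, 29540 and 27861 in colon and 73.6, 68.7, 78.5, 101 and 87.7 in ileum (log2 difference 8.17 ± 0.15 SE, adjusted p = 6.01e-14). Neither gene overlapped between the tissues, and Car1 had the smallest adjusted p of the genes in this list. Car2 and Car4 differed by 7.05 and 4.09. Atp12a, the colonic proton-potassium pump, measured 9306 ± 2613 in colon and 52.5 ± 29.2 in ileum (SD, n = 5; 177-fold).

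The aldosterone-responsive sodium route was higher in colon at the channel, the receptor and the enzyme that guards it. The channel subunits Scnn1a, Scnn1b and Scnn1g differed by 3.93, 2.74 and 2.08. The mineralocorticoid receptor Nr3c2 measured 43299.6, 21961, 28292, 43845 and 24114 in colon and 11572, 5928, 6802, 5617 and 8768 in ileum (log2 difference 2.06 ± 0.26 SE, adjusted p = 2.1e-05). Hsd11b2, the enzyme that protects that receptor from glucocorticoids, differed by 3.62 (adjusted p = 6.78e-10), whereas the downstream kinase Sgk1 was not called (0.33, adjusted p = 0.209). The anion exchangers went opposite ways. Slc26a3 was 8.03-fold higher in colon, and Slc26a6 measured 23, 11.9, 25.5, 20.2 and 22.5 in colon and 5019, 2617, 4279, 3144 and 3142 in ileum (log2 difference -7.40 ± 0.14 SE, adjusted p = 1.45e-13).

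Other pairs of relatives split between the tissues too. Of the peptides that act on guanylate cyclase C, guanylin (Guca2a) measured 7376, 4229, 8931, 8272 and 4976 in colon and 3046, 1859, 3149.5, 2437 and 1755 in ileum (log2 difference 1.45 ± 0.16 SE, adjusted p = 6.01e-06), with no overlap. Uroguanylin (Guca2b) measured 56.8, 60.2, 59.9, 48.2 and 49.8 in colon and 4148, 1679, 3073, 3234 and 2725 in ileum (log2 difference -5.68 ± 0.18 SE, adjusted p = 6.93e-12). Their receptor Gucy2c was not called (-0.24, adjusted p = 0.329). Of the phosphate transporters, Slc20a1 was 24.2-fold higher in colon and Slc34a2 8.09-fold higher in ileum. Among water channels Aqp4 was higher in colon at 3.99, and Aqp1, Aqp3, Aqp7 and Aqp11 were higher in ileum at -2.38, -4.48, -3.88 and -1.58. The lactate and butyrate transporter Slc16a1 was higher in colon (1.45, adjusted p = 1.76e-05), while Slc5a8, a sodium-coupled transporter of the same acids, was not called (-0.23, adjusted p = 0.483) and Slc12a2 and Cftr, the chloride secretion pair, were not called either, at 0.20 and 0.18.

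**Figure D3:**
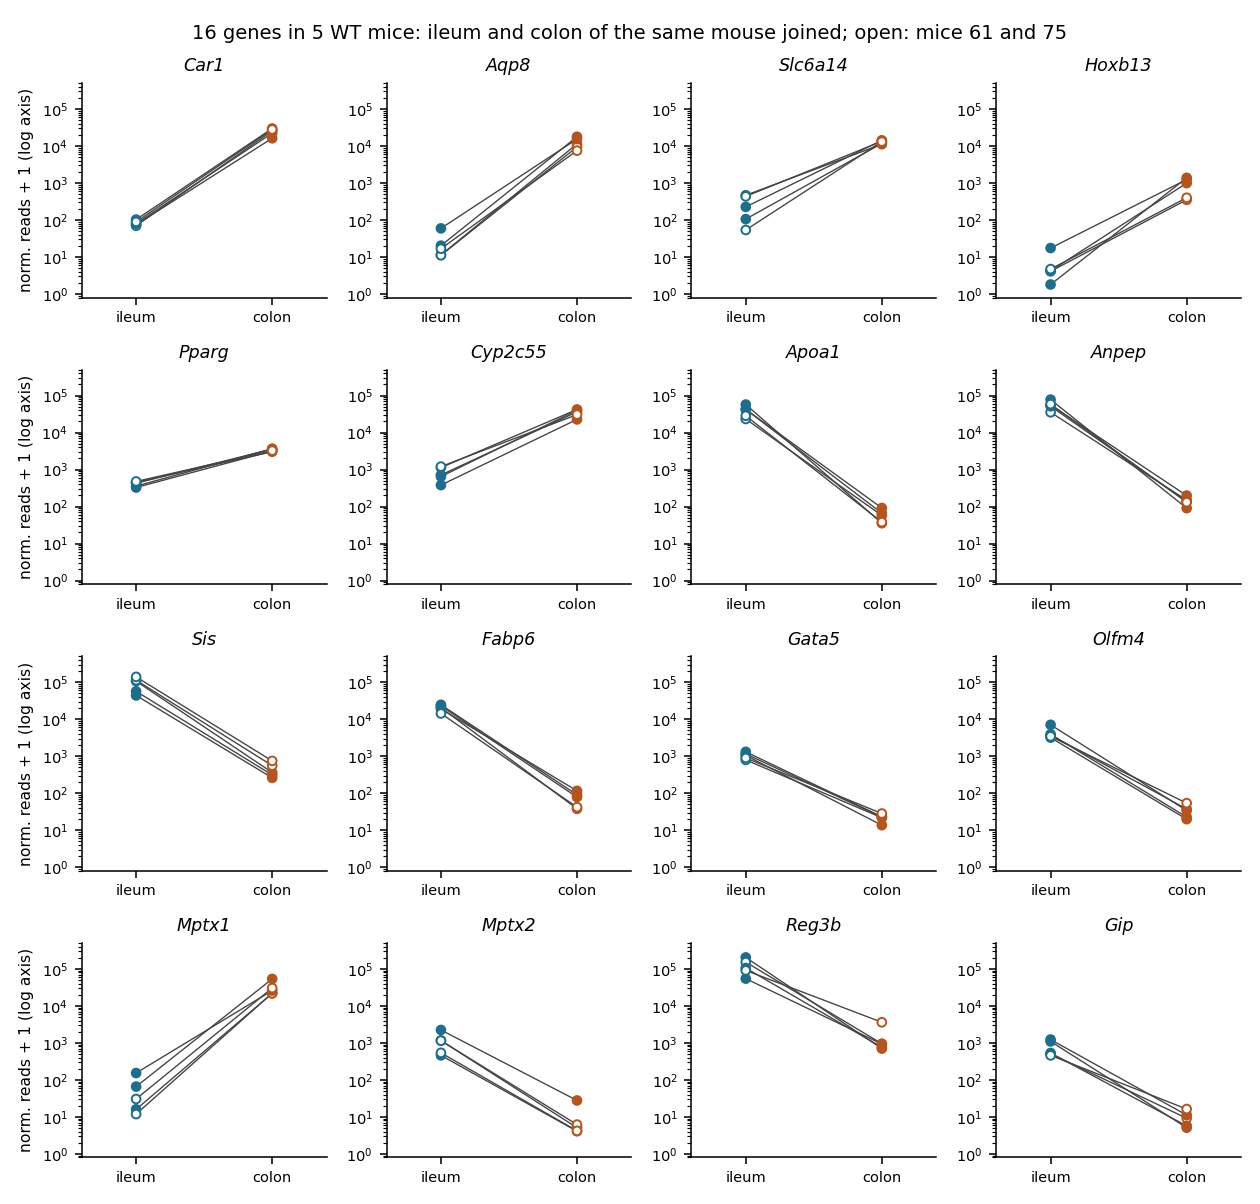
Normalised reads plus 1 (log axis) of 16 genes in ileum and colon of 5 WT mice, with a line joining the tissues of a mouse and open symbols for mice 61 and 75. All lines of a panel run the same way, upward for Car1, Aqp8, Slc6a14, Hoxb13, Pparg, Cyp2c55 and Mptx1 and downward for the other genes.

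Iron, zinc and calcium genes were called higher in colon more often than all genes, and higher in ileum no more often. Of 18 tested, 7 were called higher in colon (38.9%, against 15.8% of all genes) and 3 higher in ileum (16.7%, against 19.2%), with a median of 0.30. Slc40a1, the iron exporter ferroportin, measured 3246, 3563, 3384, 4836 and 3785 in colon and 440.1, 625, 537, 343 and 358 in ileum (log2 difference 3.05 ± 0.18 SE, adjusted p = 6.13e-09). The calcium channel Trpv6 and the calcium-binding protein S100g were 11.6- and 12-fold higher in colon, with no overlap for either. The magnesium channel Trpm6 differed by 2.44. The zinc transporter Slc39a5 was higher in ileum at -2.27 (adjusted p = 3.66e-09). The apical iron importer Slc11a2 and the vitamin D receptor Vdr were not called, at -0.30 and 0.40, and Vdr was called on recovered reads (edgeR 0.41, DESeq2 0.46).

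Metabolic genes went both ways. Of 40 xenobiotic genes, 12 were called higher in colon (30%) and 18 higher in ileum (45%), with a median of -0.42. Cyp2c55, a cytochrome P450 of the colon, measured 22684, 36249, 42099, 40337 and 30592 in colon and 380, 714, 1133, 647 and 1203 in ileum (log2 difference 5.48 ± 0.21 SE, adjusted p = 4.44e-11). Sult1a1, a phenol sulfotransferase, was 106-fold higher in colon. Cyp3a11, a target of the pregnane receptor, was 69-fold higher in ileum (log2 difference -6.20, and -5.42 in mice 61 and 75). Ketone and fat oxidation genes were called higher in colon for 7 of 21 (33.3%, against 15.8% of all genes), with a median of 0.05. In ileum 4 were higher (19%), near the 19.2% of all genes. Pdk4, which holds back pyruvate oxidation, measured 793, 741, 1282, 1407 and 624 in colon and 14.2, 32, 34.5, 89.5 and 35.1 in ileum (log2 difference 4.69 ± 0.22 SE, adjusted p = 4.55e-10).

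Of 21 cholesterol synthesis genes, 10 were called higher in ileum (47.6%) and 2 in colon (9.52%), none of them by 4-fold, with a median of -0.42. Insig1, which restrains the sterol sensor, was higher in colon at 0.95 (adjusted p = 0.000943), and the synthesis enzyme Hsd17b7 higher in ileum at -0.95 (adjusted p = 9.94e-05). Retinoid genes were called higher in colon for 6 of 19 (31.6%) and in ileum for 5 (26.3%), against 15.8 and 19.2% of all genes. Their median was 0.17, and 0.40 in the 2 irradiated mice. Rdh7, a retinol dehydrogenase, measured 6.6, 8.9, 7.6, 3.1 and 8 in colon and 399.8, 465, 428, 492 and 498 in ileum (log2 difference -5.92 ± 0.23 SE, adjusted p = 4.44e-11). Dhrs9, another dehydrogenase of retinol, was 8.06-fold higher in colon, and Rbp2, the retinol-binding protein of enterocytes, 10.8-fold higher in ileum. Adh7 was called higher in colon (0.95, adjusted p = 0.0173), a call lost without mouse 59, 72 or 75.

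Transcription factors of regional identity separated the tissues in both directions. Of 34 tested, 9 were called higher in colon (26.5%) and 17 higher in ileum (50%), with a median of -0.34. Gata5 measured 22.2, 20.8, 12.7, 21.8 and 27.3 in colon and 1313, 794, 1050.4, 1151 and 896 in ileum (log2 difference -5.58 ± 0.19 SE, adjusted p = 1.24e-11). Gata4 was 14.7-fold and Gata6 1.51-fold higher in ileum, so the 3 GATA factors of gut endoderm went the same way in different degree. Gata6 lost its call with the 3 non-irradiated mice alone (adjusted p = 0.107).

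Maf, a factor of mature villus enterocytes, measured 111, 68.4, 129, 73.1 and 107 in colon and 2754, 2587, 2582, 2173 and 4361 in ileum (log2 difference -4.87 ± 0.16 SE, adjusted p = 9.65e-12). Tbx3 and Creb3l3, the latter a regulator of lipid genes, were 16.6- and 28.3-fold higher in ileum. Pparg, a fatty acid receptor of colonocytes, measured 3598, 3040, 3663, 3176 and 3252 in colon and 427, 450.4, 357, 327 and 477 in ileum (log2 difference 3.05 ± 0.14 SE, adjusted p = 4.13e-10). Of the caudal factors, Cdx1 was slightly higher in colon (0.43, adjusted p = 0.0182) and Cdx2 slightly higher in ileum (-0.58, adjusted p = 0.00619), each with overlapping libraries. Hnf4a was not called (-0.28, adjusted p = 0.383), while its relative Hnf4g was 3.42-fold higher in ileum. Esrrg and Foxa1 were higher in colon at 1.62 and 1.20.

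Every Hox gene called was higher in colon. Hox genes lie in clusters whose order matches the body axis, with high paralog numbers used toward the tail. Of 39 Hox genes in the table, 24 passed the filter on low values and 23 of these were called (95.8%, against 15.8% of all genes). The filter keeps a gene when 5 of 10 libraries reach 10 normalised reads, which a gene read in only 1 tissue can meet. Many of the 24 had an ileum mean below 10, among them Hoxa5, Hoxa6, Hoxa7, Hoxa9, Hoxa11, Hoxa13, Hoxb13 and Hoxd13. These passed mostly through their colon libraries, so their calls were close to fixed by the filter. Hoxb13, the last gene of its cluster, measured 1374, 349, 986, 1234 and 397 in colon and 0.8, 3.1, 3.2, 16.4 and 3.7 in ileum (log2 difference 7.28 ± 0.39 SE, adjusted p = 1.88e-09). The libraries did not overlap, and the log2 difference was 6.41 in mice 61 and 75 alone and 8.00 in the 2 irradiated mice. Hoxa13 measured 124, 69.1, 147, 117 and 77.9 in colon and 0, 1.6, 3.2, 3 and 0 in ileum. Its log2 difference was 5.61, and 4.07 with a pseudocount of 5, since its ileum values are near 0. Hoxd13 measured 182, 105, 116, 271 and 129 in colon and 2.4, 6.2, 4.8, 13.4 and 4.6 in ileum (25.6-fold). Its log2 difference was 4.55, and 3.86 with a pseudocount of 5. Paralogs 9 to 13 (9 tested) had a median of 4.55 and a range of 2.17 to 7.28. Paralogs 1 to 8 (15 tested) had a median of 2.01 and a range of 1.01 to 4.98. No Hoxc gene passed the filter.

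Values also varied by cluster, which was not tested. The 7 tested Hoxb genes of paralogs 3 to 9 ran from 1.01 for Hoxb7 to 2.17 for Hoxb9, while Hoxa5, Hoxa6 and Hoxa7 differed by 3.69, 3.504 and 4.98. With a pseudocount of 5 Hoxa5, Hoxa6 and Hoxa7 were at 2.97, 2.65 and 3.35, since their ileum values are low. Hoxa7 measured 86.4, 43.9, 85.4, 62.2 and 24.9 in colon and 0, 1.6, 0.8, 0 and 2.8 in ileum, and its difference was 6.00 in mice 59, 72 and 73 and 3.44 in mice 61 and 75. Hoxa4 was the tested member not called (1.14, adjusted p = 0.0523), and it was called without mouse 73 (1.06) and by edgeR (1.24). Hoxb8 lost its call without mouse 75 (1.04). Summed over the list, colon held 2683 to 2800 normalised reads in mice 61 and 75 and 4378 to 5210 in the other 3, and ileum 422 to 601.

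**Figure D4:**
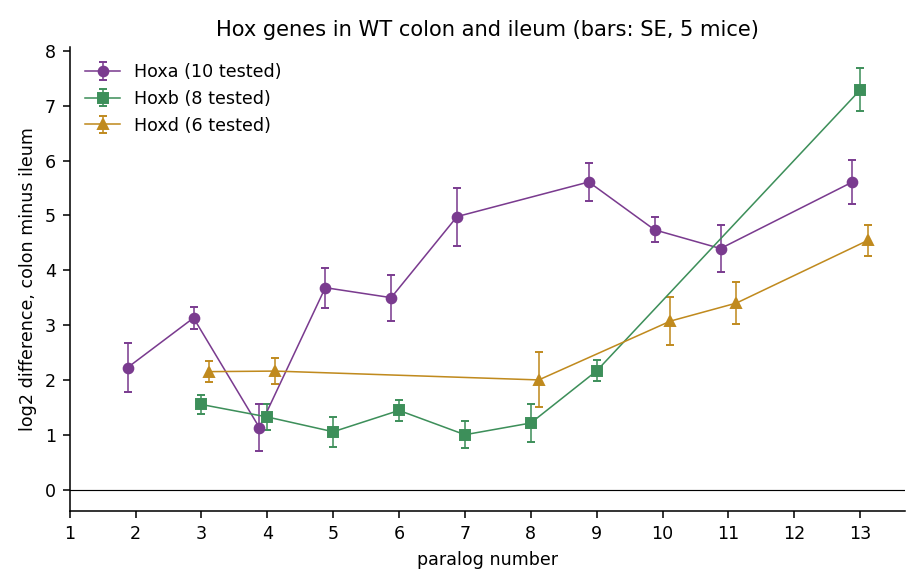
Log2 difference between WT colon and WT ileum (bars, SE over 5 mice) of 24 Hox genes against paralog number, by cluster. All points lie above 0, from 1.01 for Hoxb7 to 7.28 for Hoxb13, and the points of paralogs 9 to 13 lie between 2.17 and 7.28.

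Genes of Paneth cells had the lowest median of the 30 lists. In a mixture of sorted cells, fewer cells of a type and less RNA per cell cannot be told apart. Of 18 genes 15 passed the filter, and all 15 were called. Of these, 13 were higher in ileum (86.7%, against 19.2% of all genes) and 2 higher in colon, with a median of -6.58. The defensins are near 0 in colon and pass the filter through their ileum libraries, so their calls were close to fixed by it. Defa24, an alpha-defensin, measured 0, 2.2, 19.1, 0 and 0 in colon and 1165, 2187, 3043, 1217 and 1279 in ileum (log2 difference -9.48 ± 0.36 SE, adjusted p = 4.42e-11). Lyz1, Paneth lysozyme, measured 13.2, 19.3, 145, 12.4 and 27.3 in colon and 8136, 9720, 19821, 5343 and 5231 in ileum (log2 difference -8.26 ± 0.25 SE, adjusted p = 4.53e-12, and -9.03 in the 2 irradiated mice). For both genes the colon library of mouse 72 was the highest of the 5, as was its ileum library. Defa3 and Defa17 had no read in any colon library and were at least 33- and at least 61.5-fold higher in ileum, against a floor of 3 reads per library. Mmp7, which activates the defensins, was 64.9-fold higher in ileum, and the lectin Itln1 25.7-fold. Without mouse 72 the difference of Defa6 was -9.16 in place of -8.53. Defensin genes are close copies: all 50-base windows of Defa2 and Defa20, 72.9% of those of Defa21 and 74.9% of those of Defa22 occur in other genes, and 28.1% of those of Defa24, so single members are uncertain.

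The 2 listed genes higher in colon were Ang4 and Nupr1. Ang4, an angiogenin with antimicrobial action made by Paneth cells and also by goblet cells, measured 4765, 2686, 8222, 4218 and 4684 in colon and 1024, 892, 2088, 611 and 612 in ileum (log2 difference 2.30 ± 0.19 SE, adjusted p = 2.33e-07). Each colon library lay above each ileum library. Nupr1, a small stress-response regulator, differed by 2.49 (adjusted p = 7.54e-09).

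The mucosal pentraxins, secreted pattern-recognition proteins, were high in opposite tissues. Mptx1 measured 21738, 21974, 53568, 25996 and 30330.1 in colon and 15, 10.9, 64.9, 152 and 29.5 in ileum, a 564-fold difference (log2 difference 9.66 ± 0.34 SE, adjusted p = 2.21e-11), with 10.40 in mice 61 and 75, 10.63 in the 2 irradiated mice and 9.01 in the 3 others. Mptx2 measured 4.1, 5.2, 26.8, 3.1 and 3.2 in colon and 1158, 1145, 2234, 459 and 538 in ileum, 131-fold the other way (log2 difference -7.10 ± 0.22 SE, adjusted p = 4.85e-12). Neither gene overlapped between the tissues, and the colon library of mouse 72 held the highest value of both. The 2 genes lie on chromosome 1 and are close in sequence: their coding sequences in GENCODE M21 are 657 bases each, and 604 bases (91.9%) are identical. The longest identical run is 109 bases, and 17.9% of 50-base windows of Mptx1 and 18% of those of Mptx2 occur in another gene, so reads in such stretches cannot be assigned to 1 of them. The 150 bases that hold the most differences, positions 418 to 567 of the coding sequence, are shown with the 20 differing bases in capitals, to show what tells the transcripts apart.
Mptx1: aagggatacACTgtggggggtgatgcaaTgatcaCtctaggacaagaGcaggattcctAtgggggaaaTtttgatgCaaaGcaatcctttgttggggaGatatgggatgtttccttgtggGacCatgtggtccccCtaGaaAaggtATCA
Mptx2: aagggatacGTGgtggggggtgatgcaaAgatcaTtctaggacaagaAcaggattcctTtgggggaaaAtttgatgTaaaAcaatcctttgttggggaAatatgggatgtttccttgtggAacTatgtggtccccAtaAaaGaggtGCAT

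Other defence genes divided by family. Of 22 tested, 11 were called higher in colon (50%) and 7 higher in ileum (31.8%), with a median of 0.54, and 0.09 in the 2 irradiated mice alone. The bactericidal lectin Reg3b measured 701, 950.1, 758, 929.6 and 3606 in colon and 203994, 152385, 105409, 54467 and 90888 in ileum (log2 difference -6.63 ± 0.39 SE, adjusted p = 4.93e-09), with -7.75 in the 2 irradiated mice, -5.88 in the 3 others and -5.99 in mice 61 and 75. Reg3g measured 252, 342, 329, 277 and 796 in colon and 102594, 77437, 52767, 24067 and 39832 in ileum (log2 difference -7.18 ± 0.32 SE, adjusted p = 2.67e-10), with -8.24 in the 2 irradiated mice and -6.47 in the 3 others. In both, the colon of mouse 75 held the highest colon value and still lay far below every ileum library. Reg4, a relative made by colonic secretory cells, went the other way (2.71, adjusted p = 1.96e-09). Retnlb, a bactericidal protein of goblet cells, measured 2310.3, 976, 4409, 1965 and 1609 in colon and 24.5, 8.6, 0.8, 11.9 and 2.8 in ileum (log2 difference 8.08 ± 0.50 SE, adjusted p = 8.24e-09), with 7.29 without mouse 72, 6.59 in the 2 irradiated mice and 9.08 in the 3 others. Lypd8, which binds flagella in the colon, was 5.59-fold higher in colon. The acute-phase genes Saa1 and Saa3 were 19.1- and 5.17-fold higher in colon, and Nos2, inducible nitric oxide synthase, 6.3-fold higher in ileum. Pigr, the transporter of secretory antibodies, was not called (-0.38, adjusted p = 0.451).

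Chemokine genes went both ways. Of 10 tested, 5 were called higher in colon (50%, against 15.8% of all genes), with a median of 0.39. The 2 higher in ileum (20%) were near the 19.2% of all genes. Ccl25, which draws lymphocytes to the small intestine, measured 398, 305, 313, 337 and 244 in colon and 5513, 6472, 5187, 4596 and 7799 in ileum (log2 difference -4.20 ± 0.18 SE, adjusted p = 1.32e-10). Cxcl1 and Cxcl10 were higher in colon at 2.43 and 1.76, from low levels of 3.62 and 17.4 normalised reads in ileum.

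Goblet cell genes were called higher in colon for 13 of 22 (59.1%) and higher in ileum for 2 (9.09%), with a median of 0.97. The secreted mucin Muc2 itself was not called (0.59, adjusted p = 0.292), with values from 31913 to 106420 in colon and 29469 to 80007 in ileum that overlapped. Clca1, a mucus-processing protease, measured 141589, 62399.5, 184401, 152016 and 115798 in colon and 39053, 28009.5, 41325, 23265 and 36773 in ileum (log2 difference 1.91 ± 0.41 SE, adjusted p = 0.00206). The kallikrein Klk1 and the membrane mucin Muc4 were 8.38- and 4.49-fold higher in colon, and Muc1, another membrane mucin, 14.9-fold, with a difference of 4.56 in mice 59, 72 and 73 and 2.68 in mice 61 and 75. The goblet cell regulators Spdef and Atoh1 and the unfolded-protein sensor Ern2 differed by 1.16, 1.01 and 1.27. Fcgbp, a major mucus protein, and Zg16, which binds bacteria in mucus, were not called, at -0.15 and -0.20. Tff3, a trefoil peptide, was called higher in ileum (-0.56, adjusted p = 0.0494), and lost its call without mouse 59, 61, 72 or 75 and without the block (adjusted p = 0.415). The summed level of the list in colon was 192109 to 306110 normalised reads in mice 61 and 75 and 509263 to 529820 in the other 3, and 195309 to 439535 in ileum.

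Enzymes that build and sulfate mucin glycans were called higher in colon for 18 of 26 (69.2%) and higher in ileum for 3 (11.5%), with a median of 0.92. St6galnac6, a sialyltransferase, measured 5539, 2708, 5661, 5713 and 2617 in colon and 53, 48.4, 102, 99.9 and 44.3 in ileum (log2 difference 5.98 ± 0.15 SE, adjusted p = 1.06e-12). B3galt5, a galactosyltransferase, was 31.2-fold and Fut2, the secretor fucosyltransferase, 9.9-fold higher in colon. The branching enzymes Gcnt1 and Gcnt3 were higher in colon at 2.57 and 1.92, while their relative Gcnt4 was higher in ileum at -3.23 (adjusted p = 1.32e-10). The sulfate transporter Slc26a2 and the sulfate donor enzyme Papss2 differed by 1.57 and 0.95. B4galnt2 was not called (-0.22, adjusted p = 0.531).

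Hormone genes of enteroendocrine cells were mostly higher in ileum. Of 24 tested, 15 were called higher in ileum (62.5%) and 2 higher in colon (8.33%), with a median of -0.82. Gip, the incretin of K cells, measured 4.1, 8.2, 10.2, 4.7 and 15.3 in colon and 1094, 505, 1231, 532 and 459 in ileum (log2 difference -6.34 ± 0.31 SE, adjusted p = 6.64e-10), with -7.03 in mice 59, 72 and 73 and -5.30 in mice 61 and 75. Somatostatin (Sst), cholecystokinin (Cck), neurotensin (Nts) and secretin (Sct) differed by -4.07, -2.82, -2.92 and -1.80. Glucagon (Gcg), which encodes GLP-1 in L cells, was higher in ileum (-1.29, adjusted p = 0.000592), with overlapping libraries, and peptide YY (Pyy) was not called (-0.82, adjusted p = 0.0727). Insl5, a hormone of colonic L cells, measured 23.9, 32, 53.5, 18.7 and 45.8 in colon and 0.8, 0.8, 0.8, 1.5 and 3.7 in ileum (log2 difference 3.84 ± 0.45 SE, adjusted p = 7.72e-06). Tph1, which makes serotonin in enterochromaffin cells, measured 227, 720.4, 579, 509.9 and 689 in colon and 176, 156, 243, 125 and 153 in ileum (log2 difference 1.60 ± 0.23 SE, adjusted p = 5.84e-05), and mouse 59 gave the lowest colon value, inside the ileum range. The granins Chga and Chgb were not called, at 0.50 and 0.37.

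Tuft cell genes were called higher in ileum for 10 of 15 (66.7%) and higher in colon for 1, with a median of -1.05, and -0.51 in mice 61 and 75. Trpm5, the taste channel of tuft cells, measured 221, 163, 199, 233 and 187 in colon and 762, 387, 844, 787 and 486 in ileum (log2 difference -1.65 ± 0.15 SE, adjusted p = 5.68e-07). The kinase Dclk1 and the lineage factor Pou2f3 differed by -0.60 and -0.80. The single member higher in colon was Hpgds, a prostaglandin D synthase, at 427, 381, 508, 546 and 409 in colon and 57.8, 78.8, 111, 68.6 and 118 in ileum (log2 difference 2.42 ± 0.18 SE, adjusted p = 6.73e-08). Gnat3, a taste G protein, was not called (0.30, adjusted p = 0.132).

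Stem and crypt genes were called higher in colon for 5 of 19 (26.3%) and higher in ileum for 8 (42.1%). Over all genes these shares were 15.8 and 19.2%. The median of the list was -0.31, and -0.07 in the 2 irradiated mice. Olfm4, a secreted marker of small intestinal stem cells, measured 18.9, 36.4, 33.1, 21.8 and 53 in colon and 3182, 3729.7, 7071, 3920.4 and 3444 in ileum (log2 difference -7.02 ± 0.21 SE, adjusted p = 3.64e-12), and -6.32 in mice 61 and 75. Lgr5, the stem cell receptor for R-spondins, differed far less, at 235, 289.9, 217, 202 and 297 in colon and 447, 440.3, 541, 452 and 521 in ileum (log2 difference -0.96 ± 0.14 SE, adjusted p = 8.24e-05). The Wnt target Axin2 was 4.68-fold higher in ileum. Higher in colon were the membrane protein Prom1, at 2.35, and the Wnt-responsive receptor Ephb3, at 1.00. Of 24 cell cycle genes, 22 were called higher in ileum (91.7%) and 1 higher in colon, with a median of -0.996 and no member past 4-fold. Mki67, a proliferation marker, measured 1770.4, 1613, 2088, 1317 and 1115 in colon and 1947, 2980.3, 2795, 2304 and 2023 in ileum (log2 difference -0.62 ± 0.16 SE, adjusted p = 0.00575), with overlapping libraries. The DNA replication helicase genes Mcm2 to Mcm7 ran from -1.14 for Mcm4 to -0.77 for Mcm7, and Ccnd1, cyclin D1, was the furthest at -1.68 (adjusted p = 1.34e-07). Plk1, a mitotic kinase, was the member higher in colon (0.91, adjusted p = 0.000169), and Tyms was not called (-0.13, adjusted p = 0.619).

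Of the 30 lists, that of MHC class II presentation varied most between mice, with an SD of 1.43 over the medians of single mice. Of 9 MHC class II genes tested, 7 were called higher in ileum (77.8%) and 1 higher in colon, with a median of -1.70 whose value in single mice ran from -3.90 to -0.13, and -2.51 in mice 61 and 75. H2-Aa, a class II chain, measured 3912, 3611, 841, 8903 and 180 in colon and 8904, 7703, 5719, 5134 and 4397 in ileum (log2 difference -1.77 ± 0.51 SE, adjusted p = 0.0132). The colon values span 180 to 8903 and overlap the ileum values, with mouse 75 lowest and mouse 73 highest. Cd74, the invariant chain, and Ciita, the class II activator, differed by -1.70 (adjusted p = 0.00458) and -1.42 (adjusted p = 0.000148). Ctss, the protease that trims the invariant chain, was the member higher in colon (1.45, adjusted p = 3.4e-05). Macrophage genes C1qa, C1qb, C1qc and Lyz2 did not pass the filter on low values in either tissue. Of 7 myeloid markers tested, Cd14 was called higher in colon (1.01) and Itgam higher in ileum (-2.08), and Cd14 lost its call without the block (adjusted p = 0.0577). Whether cells other than epithelium contributed to the class II genes was not tested.

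Interferon-induced genes were mostly higher in colon. Of 31 genes of class I presentation and interferon response, 17 were called higher in colon (54.8%) and 4 higher in ileum (12.9%), with a median of 1.10, and 0.41 in mice 61 and 75. Medians in single mice ran from 0.01 to 1.97. Ifit2 measured 1025, 1179.9, 1944, 1293 and 946 in colon and 57.8, 199, 96.1, 56.7 and 96 in ileum (log2 difference 3.76 ± 0.23 SE, adjusted p = 8.49e-09, and 2.92 in mice 61 and 75). Gbp2, an interferon-induced guanylate-binding protein, measured 1791, 1646, 1549, 5014 and 1102 in colon and 377, 514, 81.7, 127 and 116 in ileum (log2 difference 3.34 ± 0.37 SE, adjusted p = 5.18e-06), with mouse 73 far above the other colon libraries. Irf7, Isg15, Oas2 and Oasl2 differed by 2.04, 2.20, 3.495 and 2.05. The class I chains H2-K1 and H2-D1, B2m and the transporter genes Tap1 and Tap2 were not called, at 0.57, 0.22, -0.36, -0.30 and 0.02, and B2m was called without mouse 73 (-0.65). Irf8 and the non-classical class I gene H2-T3 were higher in ileum at -1.60 and -2.03.

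Tight junction genes were called higher in colon for 4 of 19 (21.1%) and higher in ileum for 2, shares near or below those of all genes. Cldn8, a sealing claudin, measured 644, 1029.7, 1352, 1267 and 464 in colon and 14.2, 60.1, 93.7, 77.5 and 29.5 in ileum (log2 difference 4.25 ± 0.21 SE, adjusted p = 5.42e-10). Cldn15 and Cldn2, which form cation pores, were 6.65- and 2.25-fold higher in ileum. Ocln, occludin, was not called (0.46, adjusted p = 0.0585). Of 14 stromal, vascular and neural markers, 1 was called (Pecam1, 1.02, adjusted p = 0.000142). Of 4 tested markers of pancreatic acinar cells, Cela1, an elastase, was called higher in colon at 877 against 52.5 normalised reads (log2 difference 3.96, and 3.26 in mice 61 and 75), while Cela2a, Cpb1 and Pnlip were not called.

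The difference between the tissues was then compared between WT groups. Irradiated and non-irradiated WT mice differed in it at 0 of 17646 genes by limma and by edgeR, and at 13 by DESeq2. Before adjustment 441 genes (2.5%) had a limma p under 0.05, a smaller share than chance gives at that threshold, and the lowest adjusted p was 0.1453. With 2 against 3 mice, a p that misses the threshold does not show that the groups were alike. Reg3b and Reg3g, neither of them called, gave interaction values of -1.87 and -1.77 (irradiated minus non-irradiated), unadjusted limma p 0.00637 and 0.00126. For both, the colon of non-irradiated mouse 75 held an outlying value, 3605.7 for Reg3b against 701.2 to 950.1 in the other colon libraries. The count of called genes was 43 without mouse 73, 37 without mouse 75, 9 without mouse 72, 1 without mouse 61 and 8 when receptor reads entered the fit.

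The tissue contrast was also measured in the 7 KO mice, whose colon-ileum comparison called 3509 of the 17646 genes (19.9%). Of the 897 genes called at 4-fold in WT mice, 891 had the same sign of the mean difference in KO mice, against 13351 of 17646 genes tested (75.7%). Of the 897, 832 were called in KO mice with the same sign. Aqp8, Apoa1, Gata5 and Hoxb13 differed by 9.15, -9.26, -5.50 and 7.26 in KO mice, against 9.26, -9.41, -5.58 and 7.28 in WT mice. All KO mice were chimeras and 3 of the 5 WT mice were not, so chimerism and genotype cannot be told apart in the pooled WT group.

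**Figure D5:**
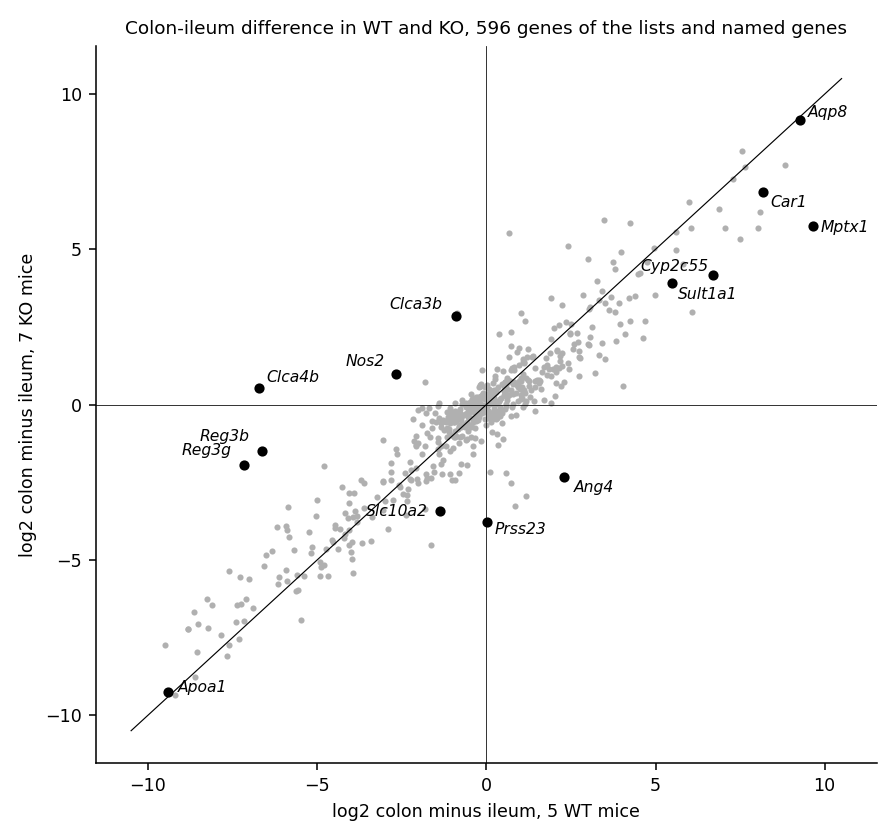
Log2 difference between colon and ileum in 5 WT mice (horizontal) and in 7 KO mice (vertical) for tested genes of the lists and the named genes, with a line of equal differences. Most points lie along the line, Aqp8 and Apoa1 at its ends, while Clca4b, Reg3b and Reg3g lie above it and Mptx1, Ang4 and Prss23 below it.

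A test of the difference between genotypes called 802 of 19350 genes in KO late, 365 with a colon-ileum difference above that of WT mice (1.89%) and 437 below it (2.26%). In KO early it called 909 genes, 611 above (3.16%) and 298 below (1.54%). Both tests use the same WT libraries. Without the mouse block the counts were 204 and 157, and with only non-irradiated WT mice 385 and 175. They moved with single mice: for KO late 529, 211 and 1963 without KO mouse 49, 50 and 57, and 466, 328 and 470 without WT mouse 59, 72 and 73. For KO early they were 207 and 515 without KO mouse 117 and 118, and 429, 355, 341, 1632 and 548 without WT mouse 59, 61, 72, 73 and 75. With WT mice 59, 72 and 73 alone the counts were 1666 and 262. The counts therefore depend on which mice are compared, and the genes described next are those furthest from the WT difference.

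Clca4b, a member of the chloride channel accessory family, showed no called tissue difference in KO mice (0.53, adjusted p = 0.274). In WT mice it measured 372, 256, 312, 275 and 276 in colon and 35156, 32656, 33272, 20342 and 40320 in ileum (log2 difference -6.73 ± 0.17 SE, adjusted p = 1.06e-12). In KO late it measured 72303 ± 31641 in colon and 33684 ± 2191 in ileum (SD, n = 3), and the difference from the WT contrast was 7.73 ± 0.50 SE (limma, adjusted p = 6.73e-08) in KO late and 6.90 in KO early (adjusted p = 1.11e-07). Reg3b in KO late colon measured 82051 ± 62753 and in KO early colon 68453 ± 45608 (SD, n = 4), against 1389 ± 1244 in WT colon, and the contrast moved by 5.62 and 4.78. Without KO mouse 49 the first was 6.32, and with only non-irradiated WT mice they were 4.87 and 4.03. The calls for Clca4b and Reg3b in KO late and KO early held without the block and without any single mouse. Of the sequence, 24.8% of 50-base windows of Clca4b occur in 2 other genes, most of all in Clca4a, so reads of these neighbours can be mixed.

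The neutrophil proteins S100a8 and S100a9 and the chemokine Cxcl3 reached at most 28.3, 34.2 and 3.7 normalised reads in any WT library and did not pass the WT filter. In KO late colon they measured 4193 ± 2618, 1039 ± 500 and 100 ± 77.1 (SD, n = 3), and the contrast moved by 9.53, 6.96 and 6.42. With WT values this low the sizes depend on the pseudocount: with 5 in place of 1 they were 8.62, 6.24 and 4.15, and that of Cxcl3 was 8.44 by edgeR. In KO early S100a8 and the acute-phase gene Lrg1 moved by 5.40 and 4.77. Both calls were lost without the block, at adjusted p 0.0722 and 0.0814, and that of S100a8 also without KO mouse 117 (0.0501), with only non-irradiated WT mice (0.071) and with only WT mice 59, 72 and 73 (0.0625). The size for S100a8 was 3.76 without KO mouse 118, 6.95 without KO mouse 100, 4.53 with a pseudocount of 5 and 7.32 by edgeR. That for Lrg1 was 4.18 and 5.93 without KO mouse 118 or 120, and 3.81 with a pseudocount of 5. Whether these S100 reads came from epithelium or from neutrophils was not tested.

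Colon-high genes of WT mice that moved down were Mptx1, Ang4 and Sult1a1. Mptx1 in KO late colon measured 190 ± 102 (SD, n = 3), against 30721 ± 13245 in WT colon, and its contrast moved by -6.10 (limma, adjusted p = 0.000341), or by -5.42 without KO mouse 49. Ang4 in KO late colon measured 59.9 ± 39.4, against 4915 ± 2029 in WT colon, and moved by -6.43, or by -5.34 without KO mouse 50 and -7.18 without KO mouse 57. Sult1a1 moved by -4.65, or by -5.57 without KO mouse 49. Prss23, a serine protease at 1324 ± 154 in colon and 1303 ± 173 in ileum, measured 56 ± 14.8 in KO late colon and moved by -4.52. In KO early the genes that moved furthest down were Cntnap5b, Pla2g4c, Mettl7a2 and Gphn, at -4.997, -4.86, -4.22 and -3.91. Pla2g4c was at -3.71 without KO mouse 100 and -6.03 without KO mouse 118, and Mettl7a2 at -3.60 without KO mouse 117. Without WT mouse 72 or 75 Cntnap5b was at -3.95 and -6.02, and Gphn at -3.10 and -4.62. Cntnap5b and Gphn were highest in the WT libraries rich in Rn45s: Cntnap5b measured 654, 5336, 26661, 31668 and 1021 in colon and 391, 825, 649.8, 30920.4 and 7617 in ileum, beside Rn45s shares of 16.13 and 19.96% in the colon of mice 72 and 73 and 25.39% in the ileum of mouse 73. In KO early mice 100, 117, 118 and 120 the Rn45s shares were 10.03, 0.1255, 1.039 and 0.1626% in colon. In ileum of the same mice they were 29.35, 3.809, 16.96 and 19.35%. The calls for Cntnap5b and Gphn were lost without the block (adjusted p 0.182 and 0.224) and without any of mice 118, 120, 59, 61 or 72. The part of Rn45s content in them was not tested.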

How the data were processed

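RNA of sorted epithelium was sequenced in 24 libraries from 12 mice. Per the labels' protocols the libraries were made from total RNA with a strand-marking kit that removes ribosomal RNA, while the molecule field of the labels names polyA RNA. Per the submitters' processing notes bcl2fastq, HISAT 0.1.6, HOMER and mm9 were used. Whether strand was used in counting: not given in the sources used here. The deposited values are a signal: reads per gene divided by a size factor per library, at 1 decimal. Low values were whole multiples of 1 read for 100% of values in the WT libraries (tolerance 0.1 normalised reads), so reads were recovered from the deposited values for the count tests.

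Genes that reached 10 normalised reads in 5 or more of 10 WT libraries were tested with limma 3.58.1 (trend, R 4.3.3) on log2(value + 1), which understates the change of low genes, with the mouse as a block and Benjamini-Hochberg adjustment over all genes tested. Interactions with irradiation used the 10 WT libraries, and those with KO used all 24 and genes that reached 10 normalised reads in 3 or more. The design named edgeR for raw counts and limma for normalised values, and the latter applied. Equal numbers mark the colon and ileum of 1 mouse, per the labels. Deviations of the tissues from their means correlated at 0.601, 0.605, 0.5354, -0.1658 and 0.6797 in mice 59, 61, 72, 73 and 75. Between colon and ileum of different mice they correlated at -0.7252 to 0.6512, with -0.3092 as the median. The ranges overlap, so these values do not show the pairing by themselves. Replicates are separate mice.

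Named genes were the 12 called genes furthest in each direction with at least 5 reads per M in the higher tissue and no overlap, passing over predicted names. Added to these were the 2 called members of each list furthest in each direction and its most abundant member not called, the members of near-relative families (Mptx, Fabp, Saa, Reg3, Gata and the Hox13 paralogs), and the 4 called genes furthest in each direction of each interaction. Some genes that this rule names are not reported here. The comparison, the lists and the members were chosen with earlier results of these data known. Of 649 list entries 646 were found in the table. Alternatives were other pseudocounts (0.5 and 5) and filters, no block, edgeR 4.0.16 and DESeq2 1.42.0 on recovered reads, reads per M without Rn45s, receptor reads as a covariate, single mice left out and subsets of mice. Those without mice 61 and 75, or with these alone, were chosen after seeing the data. On simulated data for the WT comparison (17646 genes, 5 draws), 66.8% of 2-fold, 94% of 4-fold and 100% of 16-fold changes were called, and 45 of 87230 unchanged genes. Of 1.41-fold changes only 15.2% were called. The simulation held 250 changes of each size over the 5 draws, while 35.0% of genes were called in the real comparison. Its adjusted threshold was therefore stricter, and these shares do not carry over to the real test. A gene not called can still differ by a small amount. Sequences were read with Biopython 1.88 and figures drawn with matplotlib 3.10.9.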

Additional observations from a re-analysis of the deposited data

Results flagged for a closer look

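Of 98 groups of 5 libraries examined for 49 genes, 5 held a library far from the other 4, and chance gives about 1 in 20. Foxd2 gave 3 normalised reads in the ileum of mouse 73 and 0 in the other 4. Mptx2 gave 26.8 in the colon of mouse 72, against 3.1 to 5.2 in the others. In the colon of mouse 75, Reg3b gave 3605.7 against 701.2 to 950.1 and Reg3g 796.4 against 251.9 to 342. Prss23 gave 1011 in the ileum of mouse 73, against 1303.6 to 1436.5.

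The difference between colon and ileum itself differed from that of WT mice at 802 genes in KO late and 909 genes in KO early (limma, interaction of tissue with genotype). In KO late the genes furthest above the WT difference were S100a8 (9.53), Clca4b (7.73), S100a9 (6.96) and Cxcl3 (6.42), and those furthest below were Ang4 (-6.43), Mptx1 (-6.10), Sult1a1 (-4.65) and Prss23 (-4.52). In KO early they were Clca4b (6.90), S100a8 (5.395), Reg3b (4.78) and Lrg1 (4.765) above, and Cntnap5b (-4.997), Pla2g4c (-4.86), Mettl7a2 (-4.215) and Gphn (-3.91) below.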

How the results depend on the processing

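For WT colon against WT ileum, 3244 of 3401 comparisons of a named gene with an alternative kept both the direction and the side of the threshold. The sign changed in 37, over 16 of 179 genes, and in 0 of these was the gene called in either fit. The shifts that began furthest from 0 were those of Gphn, from 0.72 to -0.09 without mouse 72 and -0.39 in mice 61 and 75, and of Cntnap5b, from 1.19 to -0.103 in mice 61 and 75. Of 570 such comparisons of list medians, 557 moved by less than the spread between mice, and 9 changed sign. Among the others, the Paneth cell median was -5 with a pseudocount of 5 and -7.29 with edgeR. Without the replicate block 4360 genes were called between WT colon and WT ileum in place of 6176, and 204 and 157 differed between KO late or KO early and WT in place of 802 and 909. With the 3 non-irradiated WT mice alone these counts were 3789, 385 and 175. Without WT mice 61 and 75 the KO counts were 1666 and 262. Leaving out 1 mouse gave 4890 to 8020 genes for WT colon against ileum, 864 to 943 of them at 4-fold, 211 to 1963 for KO late and 207 to 1632 for KO early. The irradiation comparison, with 0 genes, gave 13 by DESeq2, 8 with receptor reads as a covariate and 0 to 43 without 1 mouse. The comparison of KO colon with KO ileum stayed within 2914 to 3598 genes. The cause of these shifts was not tested. In reads per M without Rn45s the WT split was 3370 higher in colon and 3047 in ileum, and by DESeq2 3084 and 3035. Rows of 229 genes share all values with another row, so close copies are not separate measurements. Depth limits genes near the floor of 3 reads per library.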

Other observations

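Gene families were also grouped by the start of their symbols, and those described were chosen after their values were seen. Over all genes tested, 19.2% were called higher in ileum and 15.8% higher in colon. Of 355 Slc transporters tested, 103 were called higher in ileum (29%) and 69 higher in colon (19.4%). Of 50 Abc transporters these were 18 (36%) and 9 (18%), and of 12 Apo genes 5 (41.7%) and 1 (8.33%). The colon shares of Slc and Abc genes were near that of all genes. For Cyp genes both shares were, with 17 of 88 higher in ileum (19.3%) and 13 higher in colon (14.8%). The 4 families below, the Ugt and the Car genes held more genes higher in colon, and some of their members also stand in the lists above. Of 10 Cyp2d genes tested, a family of cytochrome P450 enzymes that oxidise drugs, 8 were called higher in colon (80%) and 1 higher in ileum, with a median log2 difference of 5.32. Cyp2d34 measured 6195, 2976, 4451, 5481 and 3946 in colon and 8.7, 7, 8, 11.9 and 9.2 in ileum, and Cyp2d12 measured 2098, 859, 1115, 1673 and 949 in colon and 2.4, 7.8, 3.2, 16.4 and 6.5 in ileum. Neither overlapped between the tissues. Cyp2d26 was the member higher in ileum, at 165 ± 31.7 in colon and 848 ± 333 in ileum (SD, n = 5). The family members are close in sequence: 13.7% of 50-base windows of Cyp2d34 and 17.1% of those of Cyp2d12 occur in other genes.

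Of 16 Ly6 genes in the table, which encode small surface proteins, 8 passed the filter on low values. Of these 8, 6 were called higher in colon (75%, against 15.8% of all genes), all of them by at least 4-fold. A gene read only in colon can pass that filter, and its call is then close to fixed. Ly6g, also used as a surface marker of neutrophils, measured 1309, 625, 958, 2302 and 1095 in colon and 0.8, 5.5, 4.8, 8.9 and 8.3 in ileum. In the same colon libraries S100a8, an abundant neutrophil transcript, measured 0.8, 28.3, 2.5, 3.1 and 6.4. Whether neutrophils contributed to Ly6g was not tested. Of 16 Sprr genes, which encode small proline-rich proteins of barrier epithelia, only 4 passed the same filter. All 4 were called higher in colon, with Sprr2a3 at 3233 ± 1013 in colon and 183 ± 107 in ileum. Of 11 Gbp genes tested, guanylate-binding proteins induced by interferon, 6 were called higher in colon (54.5%) and none higher in ileum.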
